A study of Mus musculus with 8 samples.

Results

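Transcripts of 9 complement genes were followed across mouse liver cells by library and by cell class. The genes were taken by name from the 31053 genes of the deposited count matrix: C1qa, C1qb and C1qc, C3, C4b, Cfb, Cfp, C5ar1 and C5ar2. All 9 had a row, and their UMIs (unique molecular identifiers, each counted as 1 captured transcript) ranged between 99 for C5ar1 and 2749 for C3. The HFHC animals were 4 mice on a diet labelled high fat, high cholesterol in the design text and high fat, high calorie in the sample titles (HFHC 1 to 4; the title of HFHC 4 numbers its animal 14). The control animals were 4 mice on a chow control diet (control 1 to 4). Both groups were labelled male C57BL/6, were 6 to 8 weeks old when obtained, and ate their diet for 20 to 32 weeks. Non-parenchymal liver cells were freed of dead cells, stained for CD45, CD31, CD146 and PDPN, flow-sorted to enrich stromal and endothelial cells, and run on the 10x Genomics platform with 1 library per animal.

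The complement system is a cascade of plasma proteins that tags and lyses targets. C1q, built of A, B and C chains, recognises bound antibody and starts the classical pathway, C4 joins the convertase that cleaves C3, and factor B (Cfb) with its stabiliser properdin (Cfp) forms the alternative convertase on deposited C3b. Cleavage of C5 downstream releases C5a, which signals through the G protein-coupled receptor C5aR1, while C5aR2 binds C5a without the usual G protein coupling. Hepatocytes are known as the main source of plasma complement, and tissue macrophages as a main source of C1q.

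The libraries held between 47 and 875 cells and between 170448 and 2309209 UMIs, with 3192 cells in all. HFHC 1, 2 and 3 and control 1 and 2 shared 33 to 65 cell barcodes pairwise, against at most 4 in any other pair; each barcode was kept only where it had most UMIs, which removed 224 of 3416 cells. Control 4, labelled male, carried Xist UMIs in 67 of its 94 cells and none of the Y-linked transcripts, whereas the other 7 libraries carried Y-linked UMIs in 18.0% to 53.2% of cells and no Xist. Cells were assigned to 15 classes by marker genes, none of them a member, and 96 cells stayed ungated. The classes were spread unevenly: hepatocyte-gated cells came nearly all from HFHC 3 (659 of 1303) and control 2 (639), and cells gated as sinusoidal endothelium (LSEC) nearly all from HFHC 4 (561 of 1259) and control 3 (554). LSEC-gated cells held a median of 8 or more of the 10 LSEC markers in every library that had any. The macrophage gate rested on fewer markers, a median of 4 of 10 over its 24 cells, and 8 of the 24 lay within 0.1 of the next class in marker share; of the markers of resident liver macrophages, Cd5l was seen in 12 of its cells, Clec4f in 7, and Timd4 and Marco in 1 each.

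By position, C1qb, C1qc and C1qa lie within 18675 bases of each other on chromosome 4, all on the minus strand, and C5ar2 and C5ar1 within 24956 bases on chromosome 7, also on the minus strand. C1qa lies at chr4:136895917-136898803, C1qc at chr4:136889804-136893065 and C1qb at chr4:136880129-136886187 in the GENCODE annotation of GRCm38 (mm10). C5ar1 lies at chr7:16246743-16259540 and C5ar2 at chr7:16234585-16244154. C3 (chr17:57203970-57228136), Cfb (chr17:34856374-34862518) and C4b (chr17:34728380-34743882) lie on chromosome 17, and Cfp (chrX:20925454-20931555) on the X chromosome. C4b has a near-identical paralog, C4a, which was not analysed here, so how reads were divided between the pair is uncertain for every C4b value.

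RefSeq promoter windows (GRCm38.p6, 250 bases before to 50 bases after a gene's start) were found for 6 of the 9 members. The windows of C1qb and C1qc are shown because these neighbours were detected together, that of C3 because it had the most UMIs, and those of C5ar1 and C5ar2 because these neighbours were found mainly in different cell classes. Each is printed 5′ to 3′ along the gene. Capitals mark matches, on either strand, to 4 motifs. PU.1 was searched as GAGGAAG and C/EBP as TTGCNNAA. AP-1 was searched as TGANTCA. The TATA box was searched as TATAAA.
C1qb promoter, chr4:136886151-136886450, minus strand: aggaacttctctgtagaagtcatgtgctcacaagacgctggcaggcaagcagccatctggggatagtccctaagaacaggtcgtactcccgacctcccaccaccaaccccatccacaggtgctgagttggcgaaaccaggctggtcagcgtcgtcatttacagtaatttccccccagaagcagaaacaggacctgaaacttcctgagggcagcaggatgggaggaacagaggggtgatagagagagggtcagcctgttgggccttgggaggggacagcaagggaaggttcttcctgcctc
C1qc promoter, chr4:136892865-136893164, minus strand: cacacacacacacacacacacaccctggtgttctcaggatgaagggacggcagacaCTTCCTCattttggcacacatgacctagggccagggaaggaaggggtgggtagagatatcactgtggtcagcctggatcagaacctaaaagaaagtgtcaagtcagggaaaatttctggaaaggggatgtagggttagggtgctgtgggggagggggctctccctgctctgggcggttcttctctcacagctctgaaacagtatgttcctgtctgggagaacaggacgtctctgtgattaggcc
C3 promoter, chr17:57228087-57228386, minus strand: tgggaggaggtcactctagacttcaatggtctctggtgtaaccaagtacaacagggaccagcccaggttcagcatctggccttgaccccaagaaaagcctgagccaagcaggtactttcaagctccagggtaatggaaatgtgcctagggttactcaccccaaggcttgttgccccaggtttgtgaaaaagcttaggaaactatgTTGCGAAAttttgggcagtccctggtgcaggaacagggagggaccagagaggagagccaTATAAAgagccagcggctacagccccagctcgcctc
C5ar1 promoter, chr7:16259289-16259588, minus strand: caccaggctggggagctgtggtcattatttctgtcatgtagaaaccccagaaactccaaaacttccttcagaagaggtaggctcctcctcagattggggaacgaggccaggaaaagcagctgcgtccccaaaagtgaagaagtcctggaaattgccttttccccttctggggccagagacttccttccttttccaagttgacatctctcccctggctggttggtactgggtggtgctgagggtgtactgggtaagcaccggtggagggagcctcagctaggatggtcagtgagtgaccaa
C5ar2 promoter, chr7:16244105-16244404, minus strand: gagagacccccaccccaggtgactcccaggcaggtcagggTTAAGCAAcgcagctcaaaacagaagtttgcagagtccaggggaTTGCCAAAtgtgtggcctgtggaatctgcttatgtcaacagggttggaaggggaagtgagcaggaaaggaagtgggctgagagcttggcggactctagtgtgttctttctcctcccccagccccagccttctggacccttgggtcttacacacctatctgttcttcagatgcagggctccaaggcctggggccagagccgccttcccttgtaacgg
The C1qc window held a PU.1 match, the C3 window a C/EBP and a TATA match, and the C5ar2 window shown a pair of C/EBP matches. C5ar2 has another window in the same table, chr7:16242282-16242581, which held a PU.1 and no C/EBP match and is not printed. The C1qb and C5ar1 windows held none of the 4 motifs. Of 32851 RefSeq promoter windows of this length, 13.6% held the PU.1 letters, 10.8% the C/EBP letters, 7.81% the AP-1 letters and 13.6% the TATA letters. No match shown overlaps another, and a match is a description of letters only.

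The chains of C1q were found mainly in macrophage-gated cells. These 24 cells held 1.10% of all UMIs but 55.7% of the C1qa, 50.2% of the C1qb and 55.4% of the C1qc UMIs, and 22 of the 24 held at least 1 chain, 19 of them all 3. In UMIs per 1000000 UMIs of the class, summed over libraries (CPM), C1qa reached 5275 (exact 95% Poisson interval 4775 to 5812), C1qb 6038 (5502 to 6611) and C1qc 4913 (4431 to 5432) in macrophage-gated cells. In hepatocyte-gated cells the same levels were 2.97, 4.83 and 2.97 CPM. Intervals here and below cover counting error only.

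Only HFHC 1 and HFHC 2 had enough macrophage-gated cells, 8 and 13, for a comparison with the other gated cells of the same library. C1qa stood at 6193 CPM in the macrophage-gated cells and 221 CPM in the other gated cells of HFHC 1, and at 4681 CPM against 225 CPM in HFHC 2. C1qb stood at 7234 CPM against 394 CPM in HFHC 1 and at 5130.4 CPM against 222 CPM in HFHC 2. C1qc stood at 6275 CPM against 201 CPM in HFHC 1 and at 3755 CPM against 233 CPM in HFHC 2. In both libraries the macrophage-gated cells were the higher side for every chain. The share of all genes tested that were higher there in both libraries was not computed. In edgeR's quasi-likelihood test with the library as a block, the log2 differences were 4.85 for C1qa (SE 0.28, adjusted p = 0.00241), 4.62 for C1qb (SE 0.26, adjusted p = 0.00241) and 4.74 for C1qc (SE 0.34, adjusted p = 0.00427).

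Of the 8 members tested in macrophage-gated cells, 5 were called higher (background 7.77% of 2522 genes tested) and 2 lower (background 3.65%). The other members called higher were Cfp, by 3.75 (SE 0.57, adjusted p = 0.0141), and C5ar1, by 3.95 (SE 0.60, adjusted p = 0.0137). C3 and Cfb were called lower. Cfp and C5ar1 passed the filter on low counts only through the macrophage-gated sums, and Cfb only through the other gated cells. The counts of members called are thus not independent of the side where these are high. C3 differed by −3.22 (SE 0.41, adjusted p = 0.00974), with 219 CPM in macrophage-gated and 3972 CPM in other gated cells of HFHC 1. Cfb differed by −3.88 (SE 0.89, adjusted p = 0.0455), a call lost with DESeq2 (adjusted p = 0.155) and with DESeq2 size factors in edgeR (adjusted p = 0.0702). The fit has 1 residual degree of freedom and both libraries are HFHC, so these differences describe those animals.

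C1q levels varied widely among macrophage-gated cells. In HFHC 1 the C1qb UMIs per macrophage-gated cell had a lowest value of 1, a median of 10 and a highest value of 137. In HFHC 2 the lowest was 0, the median 5 and the highest 79. Across all classes 29 cells carried at least 10 C1q UMIs, and 15 of them were macrophage-gated and held 52.1% of all C1q UMIs. The remaining 14 were spread over 5 ungated, 3 cholangiocyte-gated, 2 LSEC-gated, 2 mesothelial-gated, 1 neutrophil-gated and 1 hepatocyte-gated cells. The 3 ungated cells of HFHC 1 held 421 C1q UMIs, of which 371 were in 1 cell. At least 2 macrophage markers were carried by 3 of 3 cholangiocyte-gated, 2 of 2 mesothelial-gated, 1 of 1 neutrophil-gated, 1 of 1 hepatocyte-gated, 1 of 2 LSEC-gated and 2 of 5 ungated cells of these 14.

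The chains divided the C1q UMIs of a class as follows. In macrophage-gated cells of HFHC 1, C1qa held 31.4%, C1qb 36.7% and C1qc 31.8% of 719 C1q UMIs, and in those of HFHC 2 34.5%, 37.8% and 27.7% of 513. Cholangiocyte-gated cells of HFHC 2 divided 128 C1q UMIs as 28.9%, 36.7% and 34.4% in the same order of genes. Mesothelial-gated cells of HFHC 1, with 68 C1q UMIs, had 58.8% of them as C1qb, and neutrophil-gated cells of HFHC 2, with 39, had 51.3% as C1qa. These are shares of captured UMIs and are not corrected for how well each gene's transcripts were captured.

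C1q UMIs also occurred in cells of other classes. Control 1 had no macrophage-gated cell and held 83 C1q UMIs. Of these, 65 were in LSEC-gated cells, 53 of them in 1 cell. C1qc was seen in 42 of 75 cholangiocyte-gated cells (56.0%, median depth 5335 UMIs), in 19 of 24 macrophage-gated cells (79.2%, median depth 1839.5 UMIs) and in 4 of 1303 hepatocyte-gated cells (0.307%, median depth 1479 UMIs). At an equal depth of 1000 UMIs per cell, the expected shares were 16.4% in cholangiocyte-gated, 76.4% in macrophage-gated and 0.235% in hepatocyte-gated cells. The cholangiocyte-gated cells with C1qc all lay in HFHC 1 (14 of 15) and HFHC 2 (28 of 42). In HFHC 3 and the control libraries 0 cholangiocyte-gated cells held C1qc, so the pooled shares do not describe the class in every library. In HFHC 1, C1qb was seen in 41 of 47 cells over all classes. In neutrophil-gated cells of HFHC 2, C1qa stood at 2990.0 CPM on 20 UMIs, of which 18 were in 1 cell. Whether such UMIs came from the cell they were counted in was not tested.

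**Figure D1:**
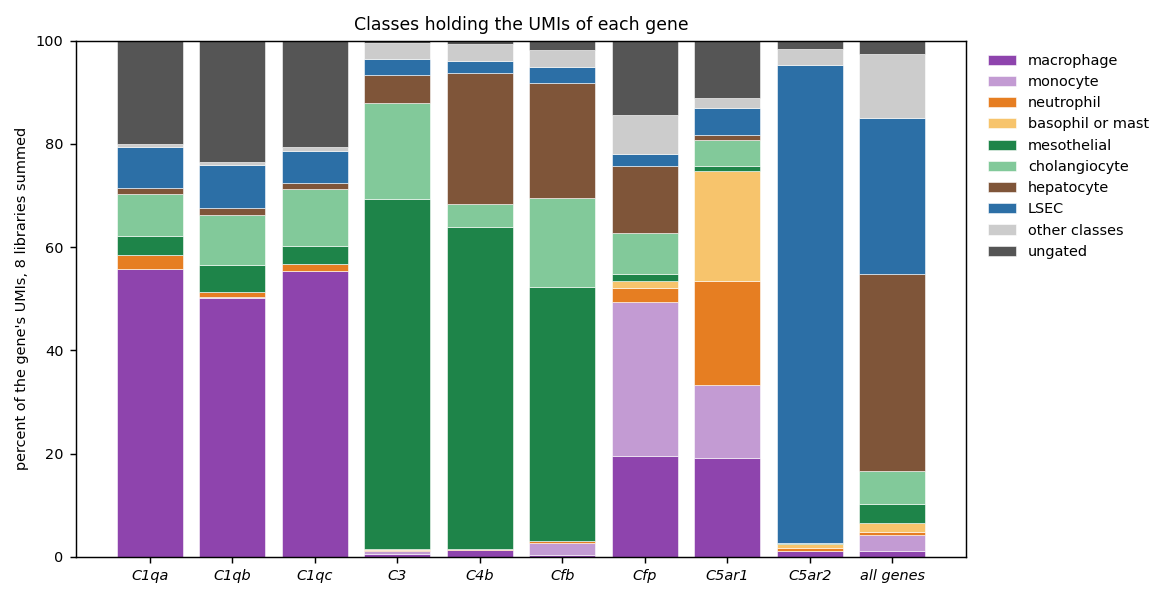
Share of each member's UMIs by the gated class of the cell that held them, beside the same share for all genes, over all 8 libraries. Macrophage-gated cells hold 50.2% to 55.7% of the C1q UMIs, mesothelial-gated cells 67.8% of the C3 UMIs and LSEC-gated cells 92.6% of the C5ar2 UMIs.

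C3, C4b and Cfb were found mainly in mesothelial-gated cells, the lining of the liver surface. The 41 mesothelial-gated cells held 3.59% of all UMIs but 67.8% of the C3, 62.4% of the C4b and 49.2% of the Cfb UMIs. They held these genes at 7359.7 CPM (7029 to 7701), 1243 CPM (1110 to 1388) and 643 CPM (548 to 749.9), in the order C3, C4b, Cfb. C3 UMIs were seen in 39 of the 41 cells, C4b in 30 and Cfb in 25. Msln and Upk3b, markers of this lining, were part of the gate, whereas the complement genes were not.

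The test joined the mesothelial-gated with the 7 fibroblast- or stellate-gated cells, as mesenchymal cells, in the 3 libraries with enough of them. C3 stood at 7964 CPM in mesenchymal-gated and 1148 CPM in other gated cells of HFHC 1, at 6919.8 CPM against 910 CPM in control 1, and at 4739 CPM against 61.7 CPM in control 2. C4b stood at 1304 CPM against 101 CPM in HFHC 1, at 1648 CPM against 89.8 CPM in control 1, and at 826 CPM against 21.8 CPM in control 2. Cfb stood at 672 CPM against 90.8 CPM in HFHC 1, at 621 CPM against 22.5 CPM in control 1, and at 431 CPM against 24.8 CPM in control 2. The mesenchymal-gated side was higher in all 3 libraries for all 3 genes. The share of all genes tested that were higher there in every library was not computed. The log2 differences were 3.76 for C3 (SE 0.66, adjusted p = 0.0147), 4.23 for C4b (SE 0.53, adjusted p = 0.00683) and 3.64 for Cfb (SE 0.61, adjusted p = 0.0125) in edgeR.

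Of 6 members tested in mesenchymal-gated cells 4 were called (background 7.42% of 1401 genes tested), these 3 higher (background 5.5%) and C1qc lower (background 1.93%). C4b and Cfb passed the filter on low counts only through the mesenchymal-gated sums, so their being tested is not independent of their calls. C1qc differed by −3.26 (SE 0.75, adjusted p = 0.0463), a call lost in 5 of 8 alternatives beside those that leave out a library (adjusted p up to 0.842, with DESeq2), while C1qa and C1qb had log2 differences of −2.58 and −2.18 with adjusted p of 0.0668 and 0.0843. The calls rest on both HFHC 1 and control 1: without either library no gene of the table was called, and the adjusted p of the 3 genes was between 0.158 and 0.183 at log2 differences of 3.26 to 4.52. C3 also lost its call with a gate margin and without the library block (adjusted p = 0.0833 and 0.122), and Cfb with a gate margin (adjusted p = 0.0508). Without control 2, which has the fewest mesenchymal-gated cells, 253 genes were called and the 3 members were among them.

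**Figure D2:**
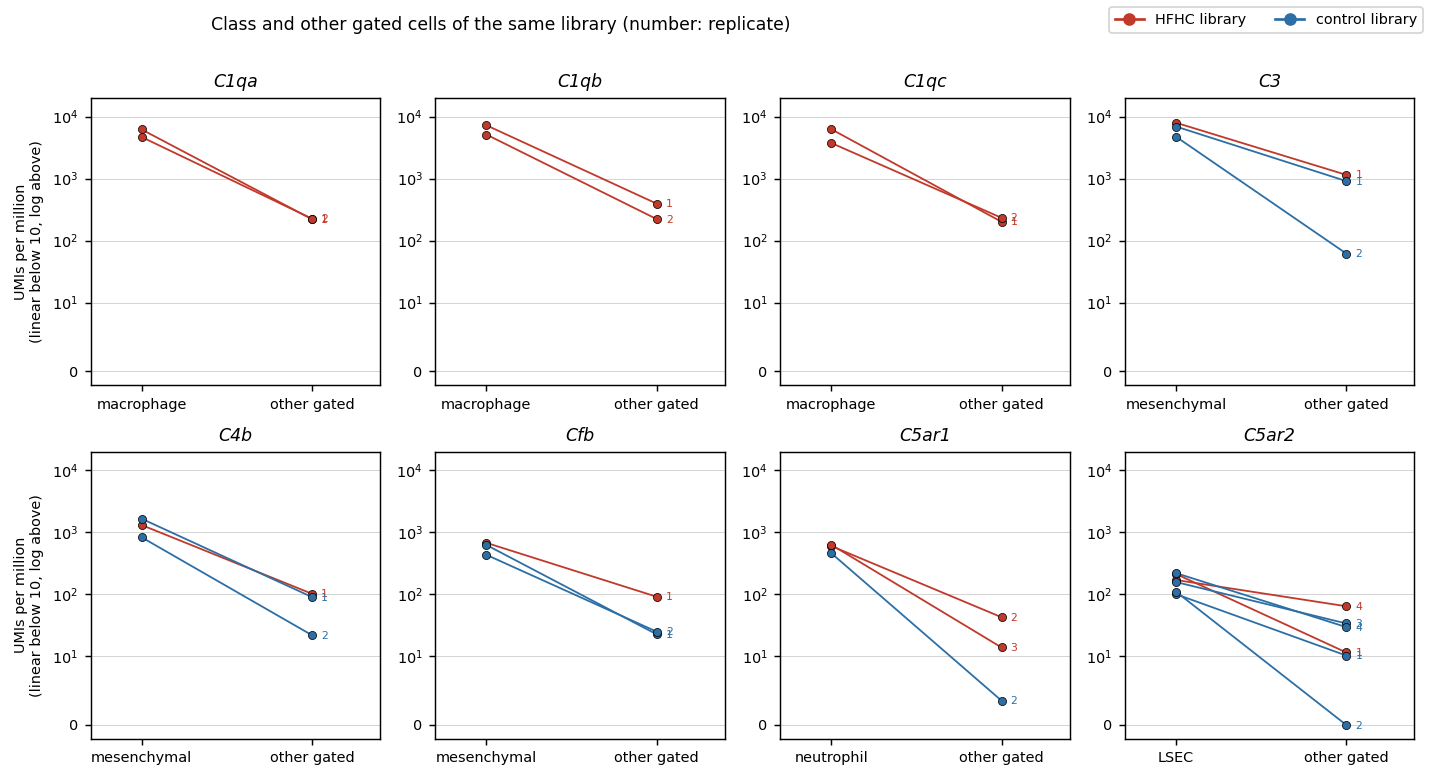
Level of the members in a class against the level in all other gated cells of the same library, in CPM (axis linear below 10 and logarithmic above), class on the left and other gated cells on the right, 1 line per library. C3, C4b and Cfb lie higher in mesenchymal-gated cells in 3 of 3 libraries, and C5ar2 lies higher in LSEC-gated cells in 6 of 6.

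Cholangiocyte-gated cells, of the bile duct lining, held 18.6% of the C3 and 17.2% of the Cfb UMIs with 6.45% of all UMIs. The 7 fibroblast- or stellate-gated cells had higher levels, 2243 CPM of C3 (1728 to 2865) and 210 CPM of Cfb (77.2 to 458), on 64 and 6 UMIs. The cholangiocyte C3 level over all libraries was 1124 CPM (1028 to 1226) and C3 was seen in 63 of 75 cells, 57.5% at an equal depth of 1000 UMIs. C3 in cholangiocyte-gated cells stood at 1592, 1150.4 and 653 CPM in HFHC 1, 2 and 3, and at 632, 437, 358 and 298 CPM in control 1, 2, 3 and 4. The lowest HFHC value for C3, 653 CPM in HFHC 3, lay just above the highest control value, 632 CPM in control 1. The control libraries had 3 or 4 such cells each and HFHC 3 had 5, so no test was made. The share of all genes that order the libraries by diet in this way was not computed. Markers of other classes were also seen in these cells. The cholangiocyte-gated cells held a median of 2 of the mesothelial markers in HFHC 1, 1 in HFHC 2 and 0 in HFHC 3 and every control library. Their medians of macrophage markers were the same in each of these libraries. Medians of LSEC markers were 2 in HFHC 1 and 3 in control 3. The part of these markers in the C3 values was not tested. The counting intervals of HFHC 3 (404 to 998 CPM) and control 1 (273 to 1244 CPM) overlap. Cfb in cholangiocyte-gated cells averaged 125 CPM (94.9 to 162) over all libraries. Among libraries with at least 10 cells of a class, the mesothelial and cholangiocyte levels of C3 did not overlap (6853 and 7964 CPM against 1150.4 and 1592 CPM). How many of all genes separate these classes in the same way was not computed.

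Hepatocyte-gated cells held C4b, Cfb and C3 UMIs at low level. They supplied 25.3% of the C4b UMIs and 22.4% of the Cfb UMIs with 38.2% of all UMIs. C4b stood at 56.9 CPM in hepatocyte-gated and 24.4 CPM in other gated cells of HFHC 3, and at 32.1 CPM against 70.2 CPM in control 2. Cfb stood at 22.5 CPM against 33.1 CPM in HFHC 3 and at 36.1 CPM against 40.7 CPM in control 2. For C4b the libraries went in opposite directions, and neither gene passed the test, with log2 differences of 0.39 for C4b (SE 0.49, adjusted p = 0.513) and 0.08 for Cfb (SE 0.39, adjusted p = 0.867) in edgeR. With every deposited barcode kept in every library C4b was called lower, at −0.78 (adjusted p = 0.0385).

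Of 5 members tested in hepatocyte-gated cells 3 were called (background 63.8%): 0 were called higher (background 30.2% of 7534 genes tested) and 3 lower (background 33.7%). C3 was called lower by −1.71 (SE 0.28, adjusted p = 3.71e-06), at 43.8 CPM in hepatocyte-gated and 159 CPM in other gated cells of HFHC 3, and 76.1 CPM against 407 CPM in control 2. Of the 290 C3 UMIs on the other side in control 2, 264 were in a few mesenchymal-gated cells. Outside the mesenchymal gate, all gated cells of control 2, hepatocyte-gated ones included, stood at 61.7 CPM. The C3 difference there thus does not describe most other classes. Cfp was called lower by −2.18 (SE 0.66, adjusted p = 0.0205), a call lost with DESeq2 (adjusted p = 0.0826), with stricter gates and without the library block. C5ar1 was called lower by −6.32 (SE 0.83, adjusted p = 8.06e-08), with 1 UMI in 1303 hepatocyte-gated cells of all libraries. It passed the filter on low counts only through the other gated cells.

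Cfp, which encodes properdin, was found in myeloid cells. Monocyte-gated cells held 29.8% of its 215 UMIs and macrophage-gated cells 19.5%. Its level was 543 CPM (391 to 734) in macrophage-gated, 294 CPM (227 to 376) in monocyte-gated and 286 CPM (131 to 543) in dendritic-gated cells, and the dendritic interval overlaps both others. In macrophage-gated cells Cfp stood at 959 CPM in HFHC 1, where 1 cell held 29 of the 35 UMIs, and at 185 CPM in HFHC 2. In monocyte-gated cells it stood at 314 CPM in HFHC 3, above the macrophage-gated cells of HFHC 2, and at 184 CPM in control 2, with UMIs in 16 of 25 and 3 of 7 cells. Monocyte-gated cells of HFHC 3 also held a median of 4 of 12 hepatocyte markers beside 3 of 5 of their own.

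C5ar1 and C5ar2, neighbouring genes for receptors of the same ligand, were found mainly in different cell classes: of 57 cells with C5ar1 UMIs 4 were LSEC-gated, and of 287 cells with C5ar2 UMIs 266. Both were seen in 5 cells, which is 8.77% of the C5ar1 cells, while 8.99% of all cells held C5ar2.

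C5ar1, the signalling C5a receptor of myeloid cells, was spread over neutrophil-gated, macrophage-gated and basophil- or mast-gated cells. Its level was 541 CPM (331 to 836) in neutrophil-gated, 246 CPM (148 to 384) in macrophage-gated and 161 CPM (99.7 to 246) in basophil- or mast-gated cells, and neighbours in this order have overlapping intervals. It stood at 598 CPM in neutrophil-gated and 42.5 CPM in other gated cells of HFHC 2, at 628 CPM against 13.8 CPM in HFHC 3, and at 459 CPM against 3.54 CPM in control 2. The neutrophil-gated side was higher in 3 of 3 libraries on 4, 10 and 6 UMIs, and the share of all genes tested that did so was not computed. The log2 difference was 5.01 (SE 0.85, adjusted p = 2.45e-07 in edgeR), where the median over all genes tested was −1.18. Of 3 members tested there, C5ar1 was the 1 called higher (background 7.94% of 2293 genes tested). C5ar1 passed the filter on low counts only through its neutrophil-gated sums, so its being tested is not independent of its call. The same held for Cfp, which was not called. Without HFHC 3 the call was lost (4.41, adjusted p = 0.0521). In basophil- or mast-gated cells C5ar1 stood at 231 CPM in HFHC 3, in 10 of 25 cells, and at 91.8 CPM in control 2, in 5 of 17 cells.

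C5ar2 was found mainly in sinusoidal endothelium. LSEC-gated cells held 30.2% of all UMIs but 92.6% of the C5ar2 UMIs, at 159 CPM (142 to 177). C5ar2 UMIs were seen in 266 of 1259 LSEC-gated cells (21.1%, Wilson 95% interval 19.0% to 23.5%, median depth 1581 UMIs) and in 0 of 1303 hepatocyte-gated cells (median depth 1479 UMIs), where a count of 0 allows up to 1.11 CPM by a limit of 3 counts. At an equal depth of 1000 UMIs per cell the LSEC share was 13.6%. Other endothelium held less per UMI: vascular endothelial-gated cells had 6 UMIs, 37.2 CPM (13.7 to 81.0), and lymphatic endothelial-gated cells 5 UMIs, all in 1 cell of control 4. Outside endothelium, macrophage-gated cells had 4 UMIs, 51.7 CPM (14.1 to 132), and neutrophil-gated cells 2 UMIs, 54.1 CPM (6.55 to 196). The neutrophil interval overlaps that of LSEC-gated cells. Both neutrophil UMIs were in HFHC 3, at 126 CPM, and 3 of the 8 macrophage-gated cells of HFHC 1 held C5ar2.

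The 6 libraries with enough LSEC-gated cells were compared within themselves, a test added after the values were seen. C5ar2 stood at 212 CPM in LSEC-gated and 11.5 CPM in other gated cells of HFHC 1 and at 169 CPM against 63.7 CPM in HFHC 4. In control 1 it stood at 99.96 CPM against 10.2 CPM, in control 2 at 109.7 CPM against 0 CPM, in control 3 at 157 CPM against 33.6 CPM and in control 4 at 219 CPM against 29.4 CPM. The LSEC-gated side was higher in 6 of 6 libraries, on as few as 5 UMIs in HFHC 1, all in 1 of 5 cells. How many of all genes tested were higher there in every library was not computed. The log2 difference was 3.31 (SE 0.68, adjusted p = 0.00717 in edgeR), 5.09 in the barcode-sharing libraries alone (adjusted p = 0.00291) and 2.07 in the others (adjusted p = 0.0432).

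Of 3 members tested in LSEC-gated cells, C5ar2 was the 1 called higher (background 9.57% of 2007 genes tested) and C3 the 1 called lower (background 5.08%). C5ar2 passed the filter on low counts only through its LSEC-gated sums, so its being tested is not independent of its call. C3 differed by −3.78 (SE 0.58, adjusted p = 0.00198), a call lost without the library block (adjusted p = 0.258). Control 1 stood apart: its LSEC-gated cells held 971 CPM, against 0 to 381 CPM in those of the other 5 libraries. In control 1 these cells also held 114 CPM of C4b and 386 CPM of C1qc. Few cells carried these levels: 1 cell held 22 of the 27 C1qc UMIs, and 1 cell held 40 of the 68 C3 UMIs. The C4b level rested on 8 UMIs. C1qb had a log2 difference of 0.00 (adjusted p = 0.995), and between −0.60 and 0.85 with 1 library left out. Its libraries went in opposite directions. C1qb stood at 25.1 CPM in LSEC-gated and 235 CPM in other gated cells of control 3, and at 116 CPM against 11.8 CPM in control 4.

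**Figure D3:**
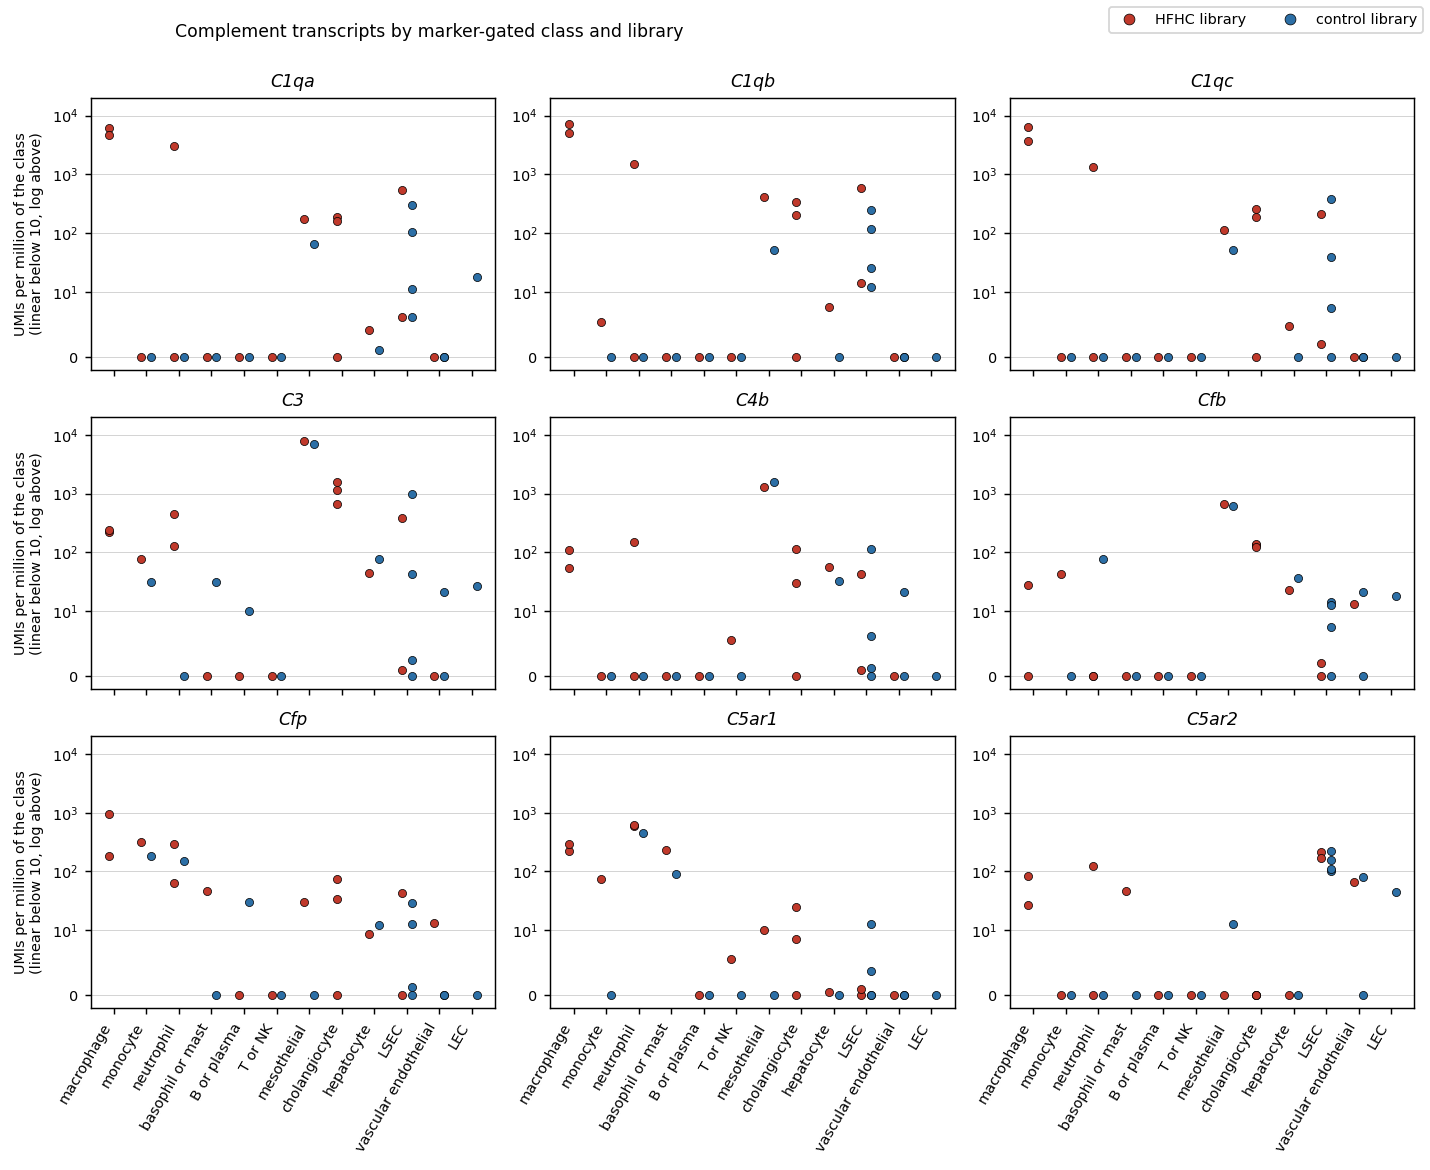
Level of each member by gated class, in CPM of the class (axis linear below 10 and logarithmic above), 1 point per library with at least 5 cells of the class, HFHC left of control. The highest points are macrophage-gated for the C1q chains, mesothelial-gated for C3, C4b and Cfb, neutrophil-gated for C5ar1 and LSEC-gated for C5ar2.

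Between diets, none of the 6 members that could be tested over all cells passed the test, and the libraries of both diets overlapped for all 9. Over all cells of a library, C1qa stood at 1329, 785, 9.09 and 7.41 CPM in HFHC 1, 2, 3 and 4, and at 153, 1.13, 14.4 and 38.9 CPM in control 1, 2, 3 and 4. C3 stood at 3292, 1389.8, 72.3 and 0.927 CPM in HFHC 1 to 4 and at 3684, 207, 9.57 and 525 CPM in control 1 to 4. C5ar2 stood at 29.6, 3.15, 2.60 and 161 CPM in HFHC 1 to 4 and at 46.9, 10.1, 152 and 85.5 CPM in control 1 to 4. For C1qa HFHC 1 and 2 lay above all controls and HFHC 3 and 4 within them, and for C3 and C5ar2 both groups spanned nearly the same range. Such a sum joins the number of cells of a class with the level in each cell, so the mix of classes moves with it.

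Group means were 532 ± 645 CPM in HFHC and 51.7 ± 69.0 CPM in control libraries for C1qa (SD, n = 4 each), 1189 ± 1541 and 1106 ± 1732 CPM for C3, and 49.2 ± 75.8 and 73.6 ± 60.6 CPM for C5ar2. In edgeR 6 members were tested and 0 called, with a background of 0% of 6666 genes; 54 genes had an unadjusted p under 0.05, and DESeq2 called 0 with 125 such genes. The log2 difference was 3.45 for C1qa (SE 1.79, adjusted p = 0.999), 3.66 for C1qb (SE 1.68, adjusted p = 0.999), 0.09 for C3 (SE 1.83) and −0.49 for C5ar2 (SE 1.17). C4b differed by −0.59 (SE 1.71) and Cfb by 0.18 (SE 1.25), and C1qc, Cfp and C5ar1 did not pass the filter on low counts.

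Within the barcode-sharing libraries, HFHC 1 to 3 against control 1 and 2, C1qa differed by 3.18 and C1qb by 3.56 on the log2 scale. In the remaining libraries, HFHC 4 against control 3 and 4, the same genes differed by −1.66 and −1.22 (adjusted p = 0.999 or above throughout). The share of macrophage-gated cells was 17.0%, 17.6%, 0.117% and 0.162% of the cells in HFHC 1, 2, 3 and 4. It was 0%, 0%, 0.174% and 0% in control 1, 2, 3 and 4. The means were 8.72% ± 9.91 and 0.0436% ± 0.0871 (SD, n = 4 each; two-sided exact permutation p = 0.0857, smallest possible 0.0286). HFHC 1 and 2 had the largest shares and the highest C1qa levels, but the remaining libraries did not follow this order. Control 1, with a share of 0%, stood at 153 CPM of C1qa over all cells, and control 3, with 0.174%, at 14.4 CPM. The part of the macrophage-gated share in the C1q values was not tested.

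**Figure D4:**
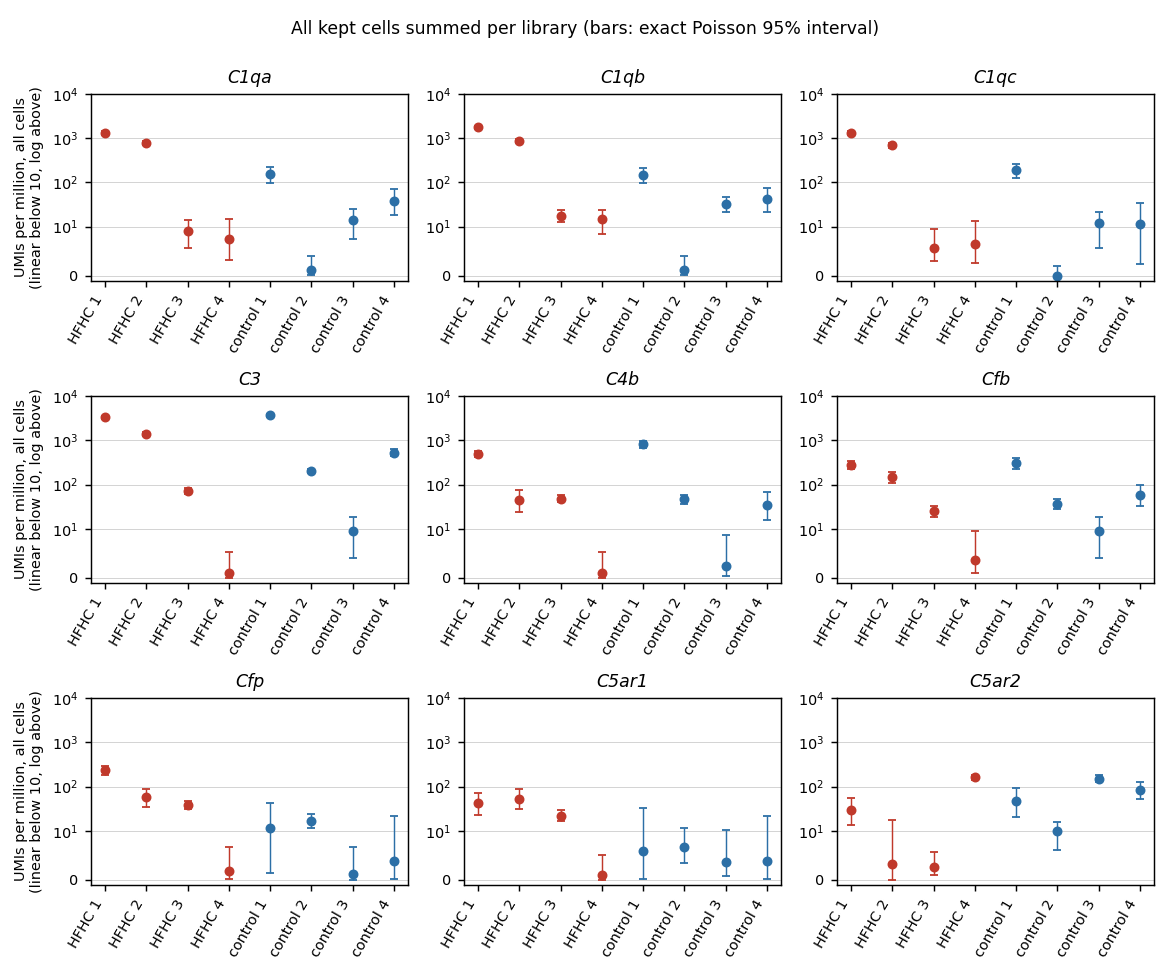
Level of each member over all cells of a library, in CPM (axis linear below 10 and logarithmic above), HFHC left of control, 1 point per library with its exact 95% Poisson interval. For all 9 members the HFHC and control libraries overlap; for C1qa 2 HFHC libraries lie above all 4 controls.

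In LSEC-gated cells alone, C5ar2 stood at 169 CPM in HFHC 4, the 1 HFHC library with at least 10 such cells, and at 146 ± 54.3 CPM in the control libraries (SD, n = 4; 99.96 to 219 CPM). HFHC 4 lay inside the control range. The log2 difference was 0.35 (SE 0.51, adjusted p = 0.999 in edgeR), with the lone HFHC library assumed to vary like the controls. Of 5 members tested 0 were called, with a background of 0.0463% of 4315 genes. The 2 genes called, named after their values were seen, were Esm1 (6.63, SE 0.62, adjusted p = 1.24e-14) and Fabp5 (1.86, SE 0.41, adjusted p = 0.031).

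Other genes of the cascade were read from a list of 43, of which 42 had a row and 35 at least 10 UMIs. In mesenchymal-gated cells 4 of 7 tested were called higher (background 5.5%) and 0 lower (background 1.93%), beside a median log2 difference of 3.83 over the 7 and 0.01 over all genes tested. Among them were Serping1, the C1 inhibitor (4.07, SE 0.64, adjusted p = 0.0115), C2 (4.44, SE 0.84, adjusted p = 0.018) and the C1r protease gene C1ra (3.83, SE 0.94, adjusted p = 0.0478). Like the members, all 4 lost their call without HFHC 1 or without control 1, where no gene was called.

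In hepatocyte-gated cells 10 of 21 listed genes were called higher (background 30.2%) and 11 lower (background 33.7%), beside medians of −1.19 over the 21 and −0.09 over all genes tested. Those with the smallest adjusted p were the terminal components C9 (4.24, adjusted p = 6.52e-10), C8g (3.24, adjusted p = 9.27e-10) and the carboxypeptidase N gene Cpn1 (3.25, adjusted p = 8.67e-09), which were higher. Itgb2, a chain of complement receptor 3 (−3.91, adjusted p = 1.16e-09), Calr (−2.33, adjusted p = 1.31e-08) and the decay-accelerating factor gene Cd55 (−4.51, adjusted p = 2.10e-08) were lower.

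In LSEC-gated cells 2 of 8 listed genes were called higher (background 9.57%) and 2 lower (background 5.08%), beside medians of 0.18 over the 8 and −0.08 over all genes tested. Masp1, a protease of the lectin pathway, was higher (2.84, SE 0.46, adjusted p = 0.00189), as was Cd55 (1.85, SE 0.39, adjusted p = 0.00783). Serping1 (−4.22, adjusted p = 0.00457) and Clu (−4.07, adjusted p = 0.00774) were lower. In macrophage-gated cells the C3a receptor gene C3ar1 (4.29, SE 0.62, adjusted p = 0.0131) and Itgb2 (2.50, SE 0.58, adjusted p = 0.0461) were called higher and Clu (−2.45, adjusted p = 0.00492) and Serping1 (−2.40, adjusted p = 0.0166) lower, of 9 tested (background 7.77% higher and 3.65% lower), beside medians of −1.54 over the 9 and −0.15 over all genes tested. In neutrophil-gated cells Itgam (4.88, SE 0.72, adjusted p = 1.79e-09) and Itgb2 (3.61, SE 0.90, adjusted p = 0.00109) were higher and Clu (−2.72, adjusted p = 0.00243) lower, of 8 tested (background 7.94% higher and 13.5% lower), beside a median of −1.30 over the 8. Between diets 0 of 13 listed genes tested over all cells and 0 of 11 in LSEC-gated cells were called.

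The genes whose levels went most closely with each member were found by Pearson's r of log2(CPM + 10) over 23 sums of a class in a library, from 13 classes. The sums share libraries and differ in depth, so r is a description without a test. Macrophage-, monocyte- and neutrophil-gated cells gave only 1 sum each. These were the highest sums for the C1q chains, for Cfp and for C5ar1, in that order. How far r for these genes rests on that 1 sum was not tested. The C1q chains went together (r = 0.97 to 0.98), as did C3 with C4b (0.88), C3 with Cfb (0.81) and C4b with Cfb (0.82). Cd5l, a gene of resident liver macrophages and itself a gate marker, was closest to C1qa (0.88), C1qb (0.91) and C1qc (0.91), followed by Lpl and Axl for C1qa, Lacc1 and Mdk for C1qb, and Lpl and AY036118 for C1qc. C3 went with Efemp1 (0.93), Igfbp6 (0.92) and the gate marker Krt7 (0.91), C4b with Nkain4 (0.94), Sulf1 (0.93) and Timp1 (0.93), and Cfb with Cobl (0.91), Sh2d4a (0.89) and the gate marker Msln (0.87). Cfp went with Csf2ra (0.84), Mpeg1 (0.83) and Lrrc25 (0.79), C5ar1 with Nfam1 (0.91), Cd300a (0.90) and the gate marker Cxcr2 (0.88), and C5ar2 with Mylip (0.85), Arap3 (0.85) and Arrb1 (0.83).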

How the data were processed

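Single-cell RNA-seq counts from 8 libraries were used. The deposited values are whole-number UMI counts per gene and cell, which the authors made with Cell Ranger 3.0.1 against mm10 (Seurat is also named), per the submitters' processing notes. The sources used here do not give the annotation release or cell filters. A barcode found in several libraries was kept where it had most UMIs. A cell took the class with the largest share of its markers detected, with at least 2 detected and no tie; no doublet caller was run. Raw UMIs were summed per library, or by class where a library had 5 or more such cells (10 for LSEC between diets). Sums were compared by the robust quasi-likelihood test of edgeR 4.0.16 after filterByExpr and TMM scaling, with Benjamini-Hochberg adjustment over all genes tested, a threshold of 0.05 and, between classes, the library as a block. The filter keeps a gene that is high enough on either side alone. Counts of genes called thus include genes kept through the side where they are high. An SE is the log2 difference divided by the square root of its F statistic. The tests were tried on simulated data with the same spread for all genes and libraries that differed only in depth. That trial did not imitate the other differences between these libraries, and no result above rests on it. DESeq2 1.42.0, other filters, gates and library sets were alternatives. Members and lists were chosen with earlier results of these data known. The text names the 9 members, up to 6 listed genes per comparison by adjusted p and the 3 genes most like each member. A further gene that this rule selects is not reported here. Depth was 170448 to 2309209 UMIs per library; intervals and floors of 3 counts cover counting error only.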

Additional observations from a re-analysis of the deposited data

Results flagged for a closer look

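Of 29 sets of 4 libraries examined for a value far from the rest, 10 held one. The cutoff used marks about 1 in 20 sets of independent, normally distributed values. These sets share libraries and correlated genes, and their values are skewed, so that rate does not apply to the 10. Control 1 stood high among the control libraries in 7 of them. Over all cells it held 187.7 CPM of C1qc, 3684 CPM of C3, 815 CPM of C4b and 299 CPM of Cfb. In its 26 LSEC-gated cells it held 386 CPM of C1qc, 971 CPM of C3 and 114 CPM of C4b. In these cells 22 of the 27 C1qc UMIs were in 1 cell, and 40 of the 68 C3 UMIs were in 1 cell. Control 1 had 16 mesothelial-gated among 55 cells, and 74 of its 129 deposited barcodes were removed as shared with another library. Among the HFHC libraries, HFHC 1 stood high for C4b over all cells at 483 CPM, with 14 mesothelial-gated among 47 cells. HFHC 4 stood high for C5ar2 over all cells at 161 CPM, with 561 LSEC-gated among 616 cells. Control 3 was the only control library with a macrophage-gated cell, 0.174% of its cells, so 1 cell set this flag. The part of cell mix in these values was not tested.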

How the results depend on the processing

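Of the member values recomputed under the alternatives, 325 kept their direction and side of the threshold, 26 changed direction, 23 lost a call, 8 gained one and 2 moved (C1qa to 5866 and C1qc to 5593 CPM in macrophage-gated cells with copies of shared barcodes kept). Between diets over all cells, C3 and Cfb turned to −0.37 and −0.24 in the barcode-sharing libraries. In the remaining libraries C1qa (−1.66), C1qb (−1.22), C3 (−7.83), Cfb (−2.95) and C5ar2 (0.52) turned and 1 gene was called. Leaving out 1 library gave C3 −1.32 to 2.13 (−0.22, −0.32 and −0.22 without control 2, 3 and 4), Cfb −0.88 to 1.52 (−0.04, −0.23 and −0.10), C4b −2.66 to 2.10 and C5ar2 −2.73 to 0.14; C3 and Cfb were lowest without HFHC 1, C4b turned without control 1 and C5ar2 without control 3. In hepatocyte-gated cells C4b turned to −0.78 and Cfb to −0.54 with copies of shared barcodes kept, and Cfb to −0.11 and −0.16 with stricter gates. In LSEC-gated cells C1qb turned to −0.0126 with DESeq2 size factors, −1.09 with copies kept, −1.43 without the replicate block and between −0.60 and 0.85 without 1 library (−0.32 without control 2). Counts of genes called in LSEC-gated cells between diets were 25 with DESeq2, 9 without a filter, 14 with a gate margin, 9 without the barcode-sharing libraries and 3 to 13 without 1 control library, against 2. In macrophage-gated cells they were 190 with DESeq2 and 499 with a margin, against 288, and in hepatocyte-gated cells 2865 with DESeq2, against 4808. In neutrophil-gated cells they were 77 without the replicate block and 62 to 493 without 1 library, against 492. In mesenchymal-gated cells they were 375 without a filter, 316 with copies, 32 with a margin, 253 with at least 10 cells, 32 without the replicate block and 0 to 253 without 1 library, against 104. In LSEC-gated against other cells they were 930 without a filter, 527 with copies, 188 with at least 3 markers, 149 with at least 10 cells, 111 in the libraries that share few barcodes and 143 to 390 without 1 library, against 294. The cause was not tested. C3 in mesenchymal-gated cells missed the threshold with a margin (adjusted p = 0.0833) and without the replicate block (0.122).

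The replicate numbers did not pair the libraries (correlations of deviations 0.498, −0.0809, −0.416 and 0.161), and the diet fit with the replicate block called 0 genes. No paired analysis was possible because HFHC and control share only 1 number among libraries with at least 10 LSEC-gated cells, for that comparison. Leaving out a library could not be fitted for macrophage- and hepatocyte-gated cells, nor sums of at least 10 cells for macrophage- and neutrophil-gated cells, nor LSEC between diets without HFHC 4. Depth limits C5ar1 most, with 99 UMIs, and 24 macrophage-gated cells carry the C1q results.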
